A study of Macaca mulatta with 4 samples.

Results

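Open chromatin on chromosome 11 of the rhesus macaque (Macaca mulatta) was described in morulae that carry the genome of only 1 parent. Androgenetic (AG) embryos have a nuclear genome from sperm alone and gynogenetic (GG) embryos one from the oocyte alone. The series also covers RNA, DNA methylation and protein binding in these embryos, which were not analysed here. AG and GG morulae were both digested with DNase I at 40 U/ml for 5 min at 37 °C, and each gave 2 libraries, called replicates 1 and 2. The members were chosen by position: they are all chromosome 11 entries of the 4 lists of hotspots, stretches of the genome with a local excess of DNase I cuts, called at a false discovery rate of 0.01. There were 16106 of them among 328084 in all, 3317 and 4334 in AG replicates 1 and 2 and 4446 and 4009 in GG replicates 1 and 2. Overlapping or touching hotspots of the 4 lists formed 10838 merged regions out of 222970. Every hotspot was selected on its own library's DNase I signal, so being called is not a finding. Neither the number of embryos behind a library nor whether replicates came from separate embryos is given in the sources used here, so a p-value here reflects the spread among these libraries alone, and that spread may be technical. Donors and the way each kind of embryo was made cannot be told apart from the parental origin of the genome.

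DNase I cuts DNA that nucleosomes leave exposed, so hotspots mark promoters, enhancers and other accessible stretches. The morula is the compacted ball of cells that precedes the blastocyst, and by this stage the embryo's own genome is transcribed. Imprinted loci are the ones where the copy from the mother and the copy from the father are used differently, and embryos with the genome of a single parent show each copy by itself. Macaque chromosome 11 is the counterpart of human chromosome 12. All 29 genes of a hand-written list of human chromosome 12 genes lay on chromosome 11 in RefSeq's gene table of another macaque assembly, T2T-MMU8v2.0. Among them were NANOG and GDF3, which act in pluripotent cells, and IFNG, the gene of interferon gamma. Coordinates below are on chromosome 11 of rheMac8 and counted from 1, and no gene was placed on them.

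Chromosome 11 was an ordinary chromosome in how densely it was covered. Hotspots lay between positions 5893 and 133642181. They covered 3.42 and 4.32 Mb in AG replicates 1 and 2 and 4.93 and 4.53 Mb in GG replicates 1 and 2, with both GG totals above both AG totals. Per Mb there were 24.8, 32.4, 33.3 and 30.0 hotspots in that order of libraries, against 24.2, 31.8, 34.9 and 31.8 on the other autosomes. AG replicate 1 was the lowest on and off the chromosome. The lists used here hold no read counts, so sequencing depth is unknown and no counting interval is given.

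Dividing by a library's own covered length takes out the list's total, but not how far down its scores the list reaches. As such a share, chromosome 11 took 5.04 and 5.12% in AG replicates 1 and 2 and 4.83 and 4.86% in GG replicates 1 and 2. Both AG shares were above both GG shares, with means of 5.08 ± 0.0572% and 4.84 ± 0.0216% (SD, n = 2 each). The difference was 0.234 percentage points, a ratio of 1.05 that ranked 7 among the 20 autosomes. An exact two-sided permutation test gave p = 0.333, the smallest that 2 libraries against 2 allow. When only the upper 50% of each list by score was kept the difference was 0.0769 points, and with lists shortened to equal covered length it was 0.121 points. The size of the difference thus depended on how the lists were cut.

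Most hotspots were a little under 1 kb wide, and the GG lists held more wide ones. Median widths were 885 and 887 bp in AG replicates 1 and 2 and 906 and 923 bp in GG replicates 1 and 2. Hotspots of at least 2000 bp numbered 304 (9.16%) and 308 (7.11%) in AG and 543 (12.2%) and 483 (12.05%) in GG. The groups did not overlap in either measure. Wide hotspots held 23.6 and 19.5% of covered bp in AG and 30.8 and 30.7% in GG. On the other autosomes hotspots of that width had shares of 8.92 and 6.68% in AG and 11.05 and 10.6% in GG, the same order as on chromosome 11. At the narrow end, hotspots under 300 bp were 5.49 and 5.84% of the AG lists and 4.97 and 4.29% of the GG lists. The widest hotspot measured 7329 and 7124 bp in AG and 7634 and 7360 bp in GG.

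**Figure D1:**
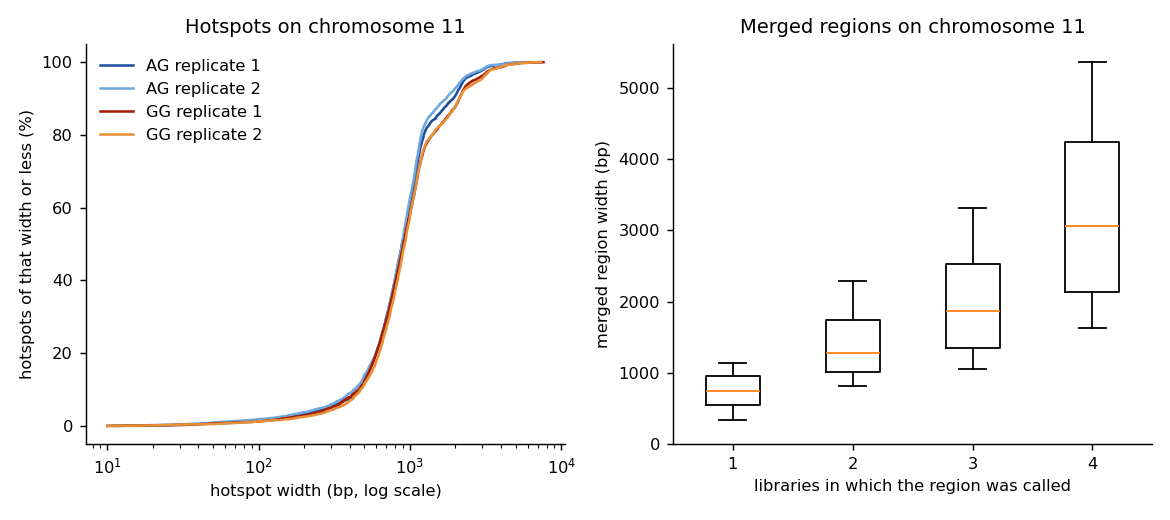
Left, the share (%) of chromosome 11 hotspots at or below a given width (bp, log scale) in each of the 4 libraries. Right, merged region width (bp) by the number of libraries that called the region, with the median as a line, the middle 50% as a box and the 10th and 90th percentiles as whiskers; the median goes from 749 bp for 1 library to 1866 bp for 3.

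Wide regions were the shared ones. Merged regions had a median width of 749 bp when they came from 1 library, 1278 bp for 2 libraries, 1866 bp for 3 and 3052.5 bp for all 4. A merged region is at least as wide as each hotspot in it, so part of this order is built in. Single hotspots, whose width does not depend on the other lists, had the same order. Overlap was counted from 1 bp, which a wide hotspot meets more easily, so part of this order is built in too. In AG replicate 1, 28.8% of hotspots of 600 to 1199 bp and 86.8% of those of at least 2000 bp overlapped a hotspot of AG replicate 2. In AG replicate 2 the shares were 20.7 and 76.0%, in GG replicate 1 they were 32.4 and 89.9%, and in GG replicate 2 they were 35.6 and 94.8%. Hotspots under 300 bp recurred least, with 5.93 to 9.89% found in the same group's other library.

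Hotspots of high score also recurred. The score is the authors' own value, its scale is not stated, and hotspots were ranked by it within a list. Scores of different libraries are printed side by side as deposited, and they are set against each other only in the rule that names regions, which takes the lowest of a region's scores. In the lowest score quartile of each chromosome 11 list, 13.98 and 11.2% of AG and 15.6 and 19.2% of GG hotspots overlapped the other library of the group. In the highest quartile 69.7 and 56.1% of AG and 77.2 and 82.3% of GG hotspots did. Score and width moved together, with median widths of 1305 and 1223.5 bp in the highest quartile of the AG lists and 662 and 684 bp in the lowest.

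GG libraries shared more hotspots with each other than with AG libraries, while AG libraries did not show that order. Of GG hotspots, 39.5% in replicate 1 and 44.0% in replicate 2 overlapped the other GG list, and 26.2 to 28.8% overlapped an AG list. Of the hotspots in AG replicate 1, 35.0% overlapped AG replicate 2, while 37.6 and 35.5% overlapped GG replicates 1 and 2. Of those in AG replicate 2, 26.6% overlapped AG replicate 1, and 27.2 and 26.6% overlapped the GG lists. By position alone, an AG hotspot of chromosome 11 was thus met about as often in a GG list as in the other AG list. Such shares also depend on the length of the list searched, and that of AG replicate 1 was the shortest.

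Of the 10838 merged regions, 8071 (74.5%) belonged to 1 library alone, 1497 (13.8%) to 2 libraries, 606 (5.59%) to 3 and 664 (6.13%) to each of the 4. The other autosomes had 74.95, 13.8, 5.39 and 5.90%. The single-library regions came to 1542 for AG replicate 1, 2563 for AG replicate 2, 2154 for GG replicate 1 and 1812 for GG replicate 2. They held 52.3% of the merged length, and the regions of all 4 libraries held 18.6%. Sharing on chromosome 11 was close to that of the genome at each step. A library counted as present with 1 bp, and when it had to cover 50% of a region, 212 regions were left in all 4.

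Regions called in both AG and neither GG library (AG-only) numbered 242, or 2.23% of merged regions, against a genome-wide 2.12%. Regions called in both GG and neither AG library (GG-only) numbered 585, or 5.40%, against 5.48%. Pairs of 1 AG and 1 GG library had 137 to 190 regions of their own, so the AG pair stood a little above the mixed pairs and the GG pair far above them. There were 2.42 GG-only regions for each AG-only region, a ratio that ranked 14 among the 20 autosomes. When lists were shortened to equal covered length, 242 AG-only and 302 GG-only regions were counted. When a group was represented by 1 of its libraries, AG-only regions numbered 2856 without AG replicate 1 and 1812 without AG replicate 2, and GG-only regions 2469 without GG replicate 1 and 2814 without GG replicate 2.

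**Figure D2:**
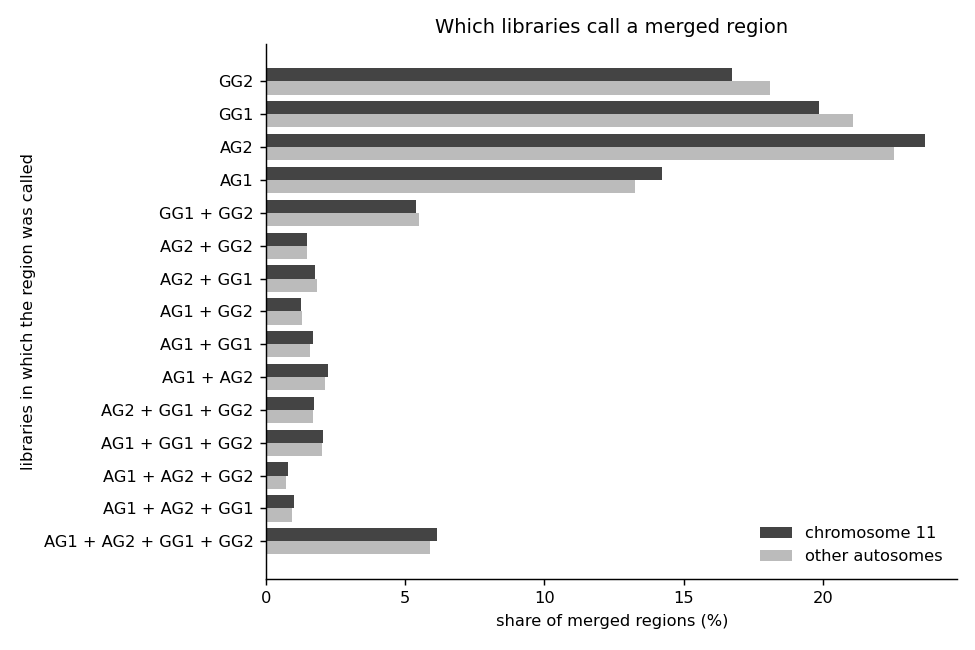
Share (%) of merged regions for each of the combinations of libraries that called them, on chromosome 11 (dark bars) and the other autosomes together (light bars). Regions of AG replicate 2 alone form the longest pair of bars, 23.6% on chromosome 11 and 22.5% elsewhere, and the GG pair (5.40%) exceeds the AG pair (2.23%).

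The 664 regions of all 4 libraries were wide and strong, and more often wider in GG than in AG. Their median covered length was 1609.5 and 1541 bp in AG replicates 1 and 2 and 2071.5 and 2001.5 bp in GG replicates 1 and 2. Both GG libraries covered more of the region than both AG libraries in 222 (33.4%), against 34.6% of such regions in the genome. Both AG libraries covered more than both GG libraries in 81 (12.2%), against 12.5%. In the remaining regions the groups overlapped. These covered lengths were not corrected for list length, and GG lists were longer.

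The strongest shared region stood far apart from the others. At 77521767 to 77522900 it spanned 1134 bp and scored 311 and 604 in AG replicates 1 and 2 and 821 and 243 in GG replicates 1 and 2, the highest score of the chromosome in each list. Ranked by its weakest library, the next was 120938965 to 120942017 (3053 bp), with scores of 28.0 and 32.2 in AG and 30.0 and 30.7 in GG. The third, 55030282 to 55031231 (950 bp), was thinly covered in AG replicate 1, whose hotspot there measured 51 bp against 664, 927 and 777 bp in the others. The fourth lay at 47404794 to 47405635 (842 bp) and the fifth at 48450841 to 48455185 (4345 bp).

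The widest merged region, at 93120516 to 93133609, was a chain of hotspots rather than 1 block. It spanned 13094 bp, with 3 and 5 hotspots covering 10636 and 5589 bp in AG replicates 1 and 2 and 3 and 2 hotspots covering 9902 and 11696 bp in GG replicates 1 and 2. AG replicate 2 thus broke the region into the most pieces. Next in width were 47751429 to 47761148 (9720 bp), 124239286 to 124248370 (9085 bp), 49072646 to 49081668 (9023 bp) and 57830790 to 57839718 (8929 bp). The last of these was absent from the list of AG replicate 1, and the others were in all 4 lists.

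AG-only and GG-only regions were of intermediate width. Their median widths were 1269.5 and 1378 bp, between those of regions from 1 and from 3 libraries, and 16.5 and 22.4% reached 2000 bp. They lay a median of 58.8 and 57.4 kb from the nearest region of all 4 libraries, with 15 AG-only (6.20%) and 54 GG-only regions (9.23%) within 5 kb of one. No such distance is given for all merged regions, so these values cannot be read as near or far.

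The highest-scoring AG-only and GG-only regions of the chromosome were next to each other. The AG-only region at 100869083 to 100870097 (1015 bp) scored 25.9 in AG replicate 1 and 59.4 in AG replicate 2. The GG-only region at 100866834 to 100868671 (1838 bp) scored 28.3 in GG replicate 1 and 18.2 in GG replicate 2. Only 411 bp separated them, whereas AG-only regions lay a median of 68.5 kb from the nearest GG-only region and 3 of 242 lay within 1 kb of one. Within the GG-only region the GG libraries touched more than they coincided: GG replicate 1 called 100866834 to 100867700 and GG replicate 2 called 100867618 to 100868671. On the flanks both kinds of embryo had hotspots, AG replicate 2 and GG replicate 1 before the pair and AG replicate 2 and both GG libraries after it. The pair was picked out after its values were seen.

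The other leading AG-only regions were 8345316 to 8346725, with scores of 13.9 and 19.7 in AG replicates 1 and 2, 122921564 to 122922533, with 13.8 and 13.5, 63918364 to 63919897, with 11.5 and 11.8, and 52167221 to 52168493, with 11.4 and 13.9. In the region at 122921564 the hotspot of AG replicate 2 was 14 bp wide against 970 bp in AG replicate 1. The other leading GG-only regions were 110560977 to 110562209, with scores of 14.9 and 13.4 in GG replicates 1 and 2, 109783445 to 109785030, with 12.2 and 11.9, 102924273 to 102925337, with 12.3 and 11.4, and 32394700 to 32398088, with 17.0 and 10.4. The last was the widest of these, 3389 bp, and GG replicate 2 called it as 2 hotspots.

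Along the chromosome, AG shares were higher toward the end and GG shares in several sparse parts. Each library's covered length on chromosome 11 was divided over 14 parts of 10 Mb, the last of them a remainder. AG and GG did not overlap in 8 parts. AG was higher in 4 of the 14, against 27.7% of autosomal parts, and GG in another 4, against 33.8% of them. Shares of 1 chromosome sum to a whole, so the parts are not independent, and the number of such parts was near the background.

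The AG-higher parts were the first and the last 3. From 110 to 120 Mb the shares were 8.60 and 9.04% in AG replicates 1 and 2 and 8.11 and 7.20% in GG replicates 1 and 2. From 120 to 130 Mb they were 10.1 and 9.63% in AG and 8.15 and 8.19% in GG, and from 130 Mb to the end 2.84 and 3.23% in AG and 2.31 and 2.14% in GG. The ratio of group means over these 3 parts was 1.15, 1.21 and 1.36, and in the first 10 Mb it was 1.08.

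The GG-higher parts were 10 to 20, 30 to 40, 70 to 80 and 80 to 90 Mb, with ratios of AG to GG of 0.816, 0.802, 0.744 and 0.775. From 70 to 80 Mb the shares were 4.17 and 3.62% in AG and 4.82 and 5.65% in GG. From 80 to 90 Mb they were 3.36 and 3.48% in AG and 4.19 and 4.64% in GG. These and the part from 30 to 40 Mb had the lowest shares of the full parts in every library. All 8 parts kept their direction without overlap when the lower-scoring hotspots were dropped. With lists of equal covered length the 4 AG-higher parts and 3 of the 4 GG-higher parts did. The groups then overlapped from 70 to 80 Mb, where the ratio was 0.834. Leaving out 1 library could not change these directions, since shares that do not overlap in 4 libraries do not overlap in 3 of them.

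**Figure D3:**
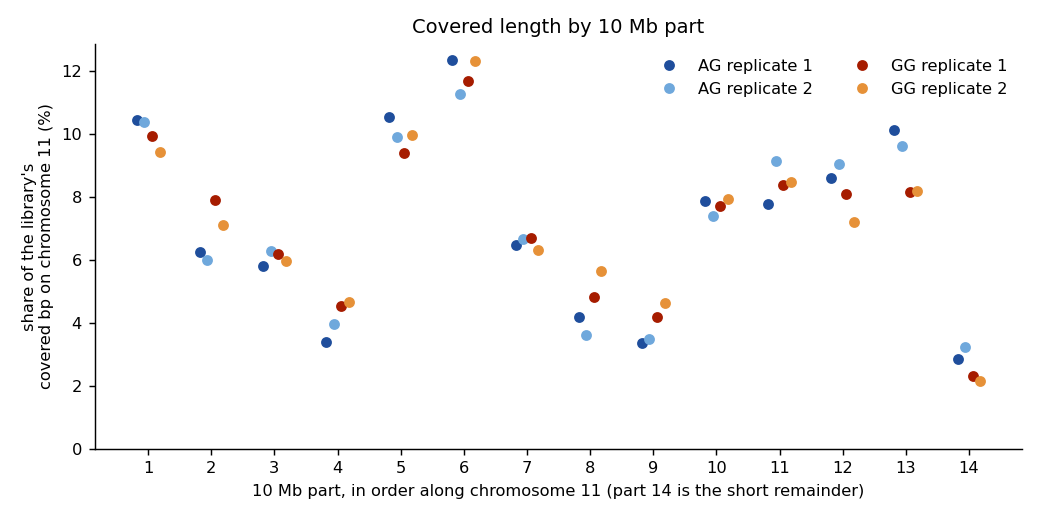
Share (%) of each library's chromosome 11 covered bp in each 10 Mb part, in order along the chromosome, with 1 point per library. The AG points lie above the GG points in the last 3 parts and below them from 70 to 90 Mb, and the part from 50 to 60 Mb has the most covered length, 11.26 to 12.35%.

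The local pattern was followed in windows of 200 kb. Covered bp per window plus an offset of 1000 bp was put on a log2 scale relative to the library's mean over tested windows, and a window was tested where the 4 libraries averaged 1000 covered bp or more. Of 669 windows on chromosome 11, 615 were tested, among 12565 in the genome. Both AG values were above both GG values in 175 windows, 28.5%, against 23.4% of all tested windows. Both GG values were above both AG values in 138 windows, 22.4%, against 24.8%. In the other 302 (49.1%) the groups overlapped. Without AG replicate 1 the counts were 283 and 217.

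The tilt toward AG depended on scaling. AG-higher windows made up 55.9% of the windows with a direction, 61.5% with scaling by the median, 51.5% when each chromosome was scaled by its own mean, and 49.6% among hotspots of the upper 50% by score. The fixed offset also put a window without any hotspot at −2.67 and −2.94 in AG replicates 1 and 2 and at −3.18 and −3.07 in GG replicates 1 and 2, so that the sparsest windows leaned to AG by construction. In the sparsest quartile of windows 47 were AG-higher and 21 GG-higher, and with the offset added after scaling, which gives an empty window the same value in every library, these counts were 29 and 25. Over all tested windows of the chromosome that setting gave 154 AG-higher and 142 GG-higher windows.

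Differences of over 2-fold without overlap were seen in 58 windows for AG, 9.43% against 7.89% in the genome, and in 44 for GG, 7.15% against 10.2%. The limma fit over all 12565 windows with Benjamini-Hochberg adjustment called 0 of the 615 windows at 0.05, as it did 0% of all windows, and the smallest adjusted p was 0.221. Before adjustment 79 windows (12.8%) had p under 0.05, 46 of them higher in AG and 33 in GG, against 15.1% of all windows. With 2 libraries a group, 0 calls do not show that windows were alike. With a variance trend, limma called 3 chromosome 11 windows higher in AG, where 0.342% of all windows were called, and 1 higher in GG, where 0.629% were. With an offset of 5000 bp it called 11 (1.79%), against 1.66% of all windows.

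**Figure D4:**
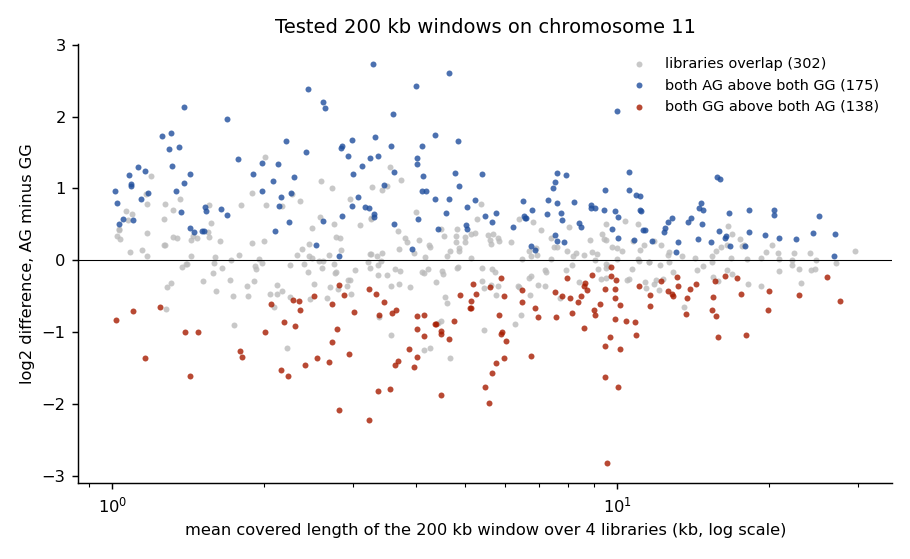
Log2 difference (AG minus GG) against the mean covered length (kb, log scale) for the 615 tested 200 kb windows, 1 point each, coloured by whether both AG values lie above both GG values (175), the reverse (138) or neither (302). Differences are larger in sparse windows: the median absolute log2 difference is 0.59 in the sparsest quartile and 0.31 in the densest.

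The windows with the largest AG excess were sparse in GG. Because they were chosen for their difference, their values are descriptions. The window at 2600001 to 2800000 had 3.93 and 8.54 kb covered in AG replicates 1 and 2 and 0 and 0.662 kb in GG replicates 1 and 2. At 3400001 to 3600000 there were 5.98 and 10.7 kb in AG and 1.38 and 0.454 kb in GG. At 117000001 to 117200000 there were 7.73 and 6.50 kb in AG and 0.865 and 0.915 kb in GG. In each, both AG libraries held several times the covered length of both GG libraries. The log2 differences on the offset scale were 2.73 (SE 0.48), 2.60 (SE 0.42) and 2.42 (SE 0.39), and the offset makes them smaller than the ratio of the covered lengths. The window at 81000001 had 3.67 and 5.40 kb in AG and 0 and 0.698 kb in GG, and that at 123800001 had 3.38 and 5.85 kb in AG and 1.22 and 0 kb in GG.

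The largest GG excess was at 13800001 to 14000000. There, GG replicates 1 and 2 covered 17.9 and 16.8 kb with 10 and 12 hotspots, AG replicate 1 covered 3.33 kb with 4 hotspots, and AG replicate 2 listed none. The window held 6 GG-only regions, among the densest groups of them on the chromosome. Its log2 difference was −2.82 (SE 0.77), −4.01 without AG replicate 1 and −1.63 without AG replicate 2, so the size rested on which AG library was used. The limma adjusted p was 0.242, and 0.0269 with a variance trend.

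The other leading GG-higher windows were sparser. At 83800001 the covered length was 0.466 and 0 kb in AG and 4.83 and 7.61 kb in GG, and at 83200001 it was 0.634 and 1.95 kb in AG and 10.8 and 8.95 kb in GG. At 44600001 it was 0.412 and 0 kb in AG and 4.004 and 6.84 kb in GG. At 15600001 it was 0 and 2.11 kb in AG and 11.7 and 4.15 kb in GG, with a log2 difference of −1.87 that was −1.19 without AG replicate 1 and −1.28 without GG replicate 1. None of the 10 leading windows of either direction held a region of all 4 libraries. This follows in part from their choice, since several had a library without any hotspot and could not hold such a region.

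Runs of at least 3 adjacent tested windows with the same direction were called stretches. Chromosome 11 had 12 AG-higher stretches of 600 to 1000 kb, 9.2 Mb in all, with 46 windows or 7.48% of those tested, against 7.03% in the genome. It had 9 GG-higher stretches of 600 to 1000 kb, 6.4 Mb in all, with 32 windows or 5.20%, against 7.3%. AG-higher stretches had 3 windows in 5 cases, 4 in 4 and 5 in 3, and GG-higher stretches 3 in 5 cases, 4 in 3 and 5 in 1. Stretch differences, which are means over windows, ranged from 0.34 to 1.78 with a median of 1.17 on the log2 scale for AG and from −1.19 to −0.47 with a median of −0.66 for GG. The fixed offset enters these values, so AG and GG sizes are not on equal terms. With the offset added after scaling, the stretch at 117000001 had 1.71 instead of 1.78 and that at 89600001 −1.31 instead of −1.19. Of the stretches named below, only that at 94800001 moved toward AG, from 0.41 to 0.43. The number of stretches was sensitive to the lists: the higher-scoring 50% gave 6 and 5. Without AG replicates 1 and 2 and GG replicates 1 and 2 in turn there were 34, 19, 22 and 31 AG-higher and 25, 18, 17 and 18 GG-higher stretches.

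The AG-higher stretch at 117000001 to 118000000 had the largest difference with the full lists. It held 26.3 and 35.8 kb in AG replicates 1 and 2 and 10.6 and 8.35 kb in GG replicates 1 and 2, from 31, 41, 13 and 13 hotspots. Both AG libraries had over 2 times the hotspots of either GG library, and the hotspots themselves had median widths of 764, 911, 845 and 659 bp. The log2 difference was 1.78 with a replicate SD of 0.08, or 3.44-fold on the offset scale, and 1.07 in the higher-scoring 50% of the lists, below the stretches at 3400001 (1.46) and 128800001 (1.28). Without AG replicate 1 it was 1.86, and that at 3400001 was 1.92. Of its 80 merged regions 69 were called in 1 library, 4 were AG-only, 1 was GG-only and 2 were in all 4 libraries.

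The AG-higher stretch at 123000001 to 124000000 was denser and shared more. It held 60.8 and 78.7 kb in AG and 49.2 and 44.5 kb in GG, a log2 difference of 1.04, and 14 of its 117 regions were in all 4 libraries. That difference weighs each window equally. It includes 2.20 from the sparsest window, at 123800001, and 1.13 from the denser one at 123200001. At 94800001 to 95800000 the covered length was 54.9 and 65.6 kb in AG and 56.1 and 57.2 kb in GG. There the groups overlapped before scaling, and the difference of 0.41 came with the scaling for list length. Unscaled lengths also overlapped in the AG-higher stretches at 93400001 (12.2 and 18.3 kb in AG, 10.5 and 13.1 kb in GG) and 47000001 (61.8 and 72.7 kb in AG, 67.5 and 64.1 kb in GG). In the other AG-higher stretches and in the GG-higher ones they did not. At 3400001 to 4200000 the covered length was 13.4 and 32.9 kb in AG and 8.67 and 7.60 kb in GG, with AG replicate 2 far above AG replicate 1 and a log2 difference of 1.48 with a replicate SD of 0.46. At 128800001 to 129600000 it was 20.3 and 19.8 kb in AG and 9.71 and 8.99 kb in GG, a log2 difference of 1.38.

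The longest GG-higher stretch, 79000001 to 80000000, held 5.25 and 10.4 kb in AG replicates 1 and 2 and 29.6 and 21.1 kb in GG replicates 1 and 2. Hotspots numbered 8 and 13 in AG and 33 and 27 in GG. Its log2 difference was −1.05, and −0.36 with lists of equal covered length. It had no region of all 4 libraries and no AG-only region, 5 GG-only regions, and 56 of 67 regions from 1 library.

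The GG-higher stretch at 89600001 to 90400000 had a difference of −1.19, the largest with all libraries, and −0.88 without AG replicate 1, when that at 102200001 was −1.44. It held 1.82 and 7.81 kb in AG and 18.8 and 19.1 kb in GG, from 3, 10, 22 and 24 hotspots, with both GG libraries alike and the AG libraries apart. At 102200001 to 103000000 the covered length was 11.8 and 7.77 kb in AG and 33.1 and 29.0 kb in GG (log2 difference −1.09). At 19400001 to 20200000 it was 19.5 and 24.3 kb in AG and 45.6 and 45.1 kb in GG (−0.66). This last stretch was the densest of the 5 named for GG. At 44200001 to 44800000 it was 5.23 and 7.30 kb in AG and 20.1 and 15.5 kb in GG (−1.03).

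**Figure D5:**
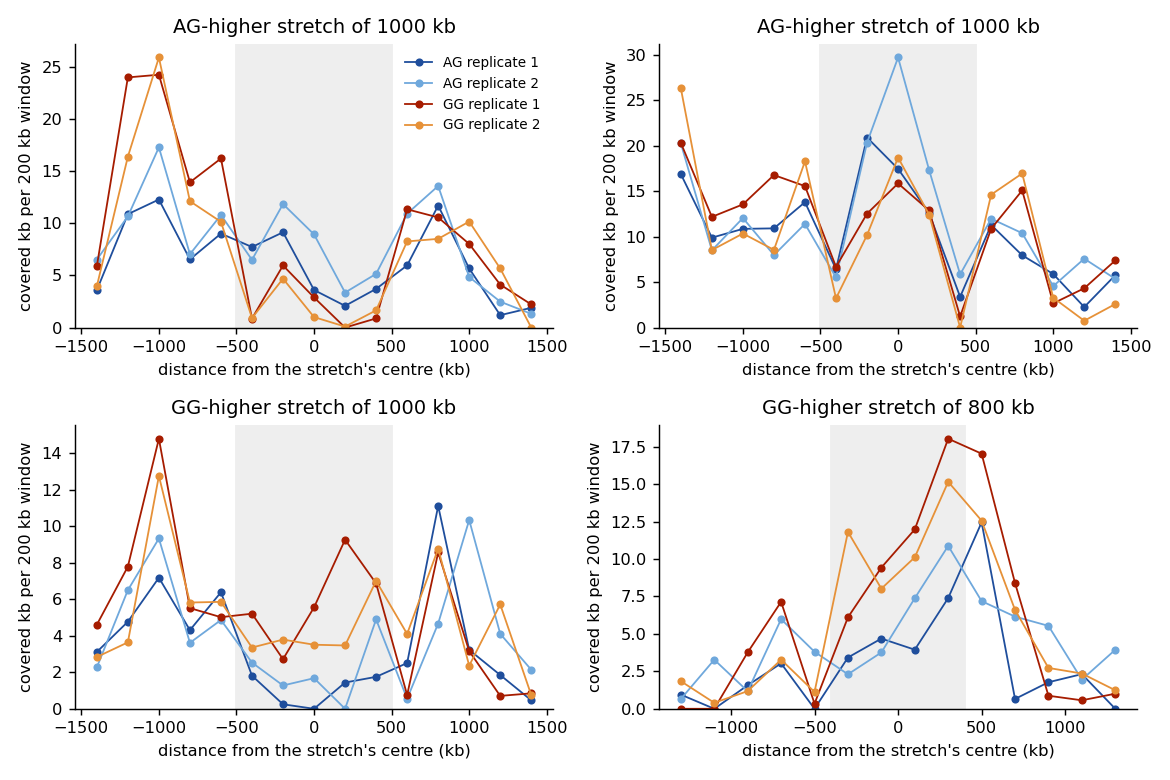
Covered length (kb per 200 kb window) by distance (kb) from the centre of 4 stretches, 2 AG-higher and 2 GG-higher, with 1 line per library. In the AG-higher stretch that starts at 117000001 the first window holds 7.73 and 6.50 kb in AG and 0.865 and 0.915 kb in GG, and the GG-higher stretch from 116200001 to 116800000 lies just before it.

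The number of hotspots differed more than their width. Together the AG-higher stretches held 10.3 and 10.5% of the chromosome's hotspots in AG replicates 1 and 2 and 6.70 and 6.56% in GG replicates 1 and 2, and the GG-higher stretches held 4.64 and 4.45% in AG and 7.06 and 7.08% in GG. These shares follow from how the stretches were chosen. Median hotspot widths in AG-higher stretches were 937, 942, 893.5 and 901 bp, and in GG-higher stretches 775.5, 904, 968 and 923.5 bp. In AG-higher stretches the share of hotspots of at least 2000 bp did not keep the order of the medians, with 9.97 and 8.53% in AG and 10.1 and 12.5% in GG. In GG-higher stretches it did, with 7.14 and 4.15% in AG and 10.2 and 10.9% in GG, which is also the order of the whole chromosome.

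Stretches were made mostly of positions seen in 1 library. Of the 886 merged regions in AG-higher stretches 659 (74.4%) were called once, near the 74.5% of the whole chromosome. These single-library regions came from AG replicates 1 and 2 in 166 and 278 cases and from GG replicates 1 and 2 in 115 and 100. AG-only regions were 33 (3.72%) and GG-only regions 28 (3.16%), against 2.23 and 5.40% on the whole chromosome, an order that follows the choice of the stretches. Of the 636 regions in GG-higher stretches 457 (71.9%) were called once, 68 and 99 of them in AG and 154 and 136 in GG, while 56 were GG-only and 11 AG-only. The 65 regions of all 4 libraries inside AG-higher stretches were wider in both AG libraries in 19 cases and in both GG libraries in 12. Of the 32 in GG-higher stretches 19 were wider in both GG libraries and 0 in both AG libraries. On the whole chromosome 12.2% of such regions were wider in both AG and 33.4% in both GG libraries, against 12.5 and 34.6% in the genome. The stretches were chosen on covered length, so a shift of these counts toward the stretch's own group is built in.

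Opposite stretches sometimes met. The AG-higher stretch at 94800001 to 95800000 was followed with no gap by the GG-higher stretch at 95800001 to 96400000. The GG-higher stretch at 116200001 to 116800000 ended 200 kb before the AG-higher one at 117000001, and that at 66800001 to 67400000 ended 400 kb before the AG-higher one at 67800001 to 68400000. Across single windows, an AG-higher window was followed by another in 51 of 165 cases (30.9%) and by a GG-higher one in 27 (16.4%), against 36.1 and 14.1% in the genome. A GG-higher window was followed by another in 43 of 128 cases (33.6%) and by an AG-higher one in 29 (22.7%), against 35.9 and 14.01%. Whether these shares differ from the genome was not tested.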

How the data were processed

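DNase-seq was analysed in 2 AG and 2 GG macaque morula libraries. The submitters' processing notes name rheMac8, Trim Galore, Bowtie2, SAMtools and deepTools 3.3.1, without roles, per the labels. Which caller made the hotspots is not given in the sources used here. For each library the authors deposited a hotspot list with a score of unstated scale in column 5; the false discovery rate of 0.01 is per the deposited file names. Read counts were not used here, so depth is unknown.

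Hotspots were merged where they overlapped or touched, and a library counted as present with 1 bp. Covered bp was summed in 200 kb windows on a fixed grid, offset by 1000 bp, scaled by the library's mean over tested windows (mean of at least 1000 bp) and fitted with limma 3.58.1 (R 4.3.3), with Benjamini-Hochberg adjustment over 12565 windows at 0.05. Stretches have at least 3 windows. Other steps ran in pandas 2.3.3, numpy 2.4.6, scipy 1.17.1 and matplotlib 3.10.9 under Python 3.11.15. The steps were tested on simulated data.

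Per direction, the 5 longest stretches, the 5 windows with the largest non-overlapping difference and the 5 group-only regions with the highest weaker score are named, with the 5 strongest shared and the 5 widest regions and, per library, the strongest region of its own. The members, rules and lists were chosen with earlier results of these data known. Alternatives changed the lists (higher-scoring 50%, equal covered length, each library left out), overlap, merging, offset, minimum, scaling, grid, hotspot number, variance trend and replicate block. The offset after scaling, the settings of the 10 Mb parts, the trend and block for named windows and the separate score ranges were added after seeing the data. Neither sequence nor annotation of rheMac8 was used here, so no genes or sequences are given.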

Additional observations from a re-analysis of the deposited data

How the results depend on the processing

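The limma count of 0 windows on chromosome 11 was 11 with an offset of 5000 bp (1.79%, against 1.66% of all windows) and 4 with a variance trend (0.65%, against 0.971%), and 0 without any 1 library. AG-higher windows (175) ranged from 225 to 283 and GG-higher windows (138) from 200 to 217 when 1 library was left out, since 3 values overlap less often than 4. AG-higher stretches (12) numbered 6 and GG-higher stretches (9) numbered 5 in the higher-scoring 50%, and 19 to 34 and 17 to 25 without 1 library. AG-only regions (242) numbered 119 and GG-only regions (585) 353 in the higher-scoring 50%; GG-only regions numbered 302 at equal covered length. Without 1 library they ranged from 341 to 2856 and from 783 to 2814. Regions of all 4 libraries (664) numbered 212 when each had to cover 50% of the region, and 746 to 888 without 1 library. The share difference (0.234 points) was 0.0769 in the higher-scoring 50%, 0.121 at equal covered length, 0.354 by number of hotspots, and 0.194 to 0.275 without 1 library. For the 10 named stretches 95 alternative values moved by less than the replicate SD and 25 by more, none reversing. For the 10 named windows none reversed, and 6 passed 0.05 with the larger offset, the trend or both. Stretches and windows were chosen for groups that did not overlap, so leaving out a library could hardly reverse them. Over the same windows, leaving out 1 of a group's 2 libraries cannot move a stretch by more than about the replicate SD. Such values among the 95 were thus fixed by construction. The trend and the block leave a window's difference unchanged. The shifted grid has no window at the positions of the named windows and gave no value for them.

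With the replicate block limma called 0 windows of chromosome 11, and 76 instead of 79 had an unadjusted p under 0.05. Deviations of same-numbered libraries correlated at −0.03 over all tested windows and 0.02 on chromosome 11. By this measure they did not deviate together, but the labels do not say what same-numbered libraries share. Unknown depth, list lengths that differ and 2 libraries a group limit every count here.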

Other observations

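The strongest regions called in a single library were narrow. In AG replicate 1 it was 81803800 to 81803846 (47 bp, score 45.4), in AG replicate 2 10959282 to 10959696 (415 bp, score 85.4), in GG replicate 1 50944693 to 50944904 (212 bp, score 58.1) and in GG replicate 2 97547151 to 97547238 (88 bp, score 27.0). All 4 were narrower than the median single-library region of 749 bp, and none was met in another list.

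Windows could hold several shared regions. The window at 51800001 to 52000000 held 10 regions of all 4 libraries and the highest mean covered length of the chromosome, with 23.4 and 32.0 kb in AG replicates 1 and 2 and 29.6 and 33.4 kb in GG replicates 1 and 2. The window at 7200001 to 7400000 held 8, with 17.7 and 20.4 kb in AG and 35.8 and 36.3 kb in GG. AG-only regions were densest at 111800001 to 112000000, with 4, where AG covered 14.01 and 16.8 kb and GG 7.41 and 1.80 kb. In the next AG-only windows, 3200001 and 48400001 with 3 each, AG covered 11.1 and 6.98 kb and 11.9 and 21.5 kb, and GG 13.5 and 11.2 kb and 14.6 and 15.6 kb. GG-only regions were densest at 55400001 to 55600000, with 7, where AG covered 14.9 and 23.9 kb and GG 22.9 and 21.6 kb. At 12600001, with 6, AG covered 1.17 and 6.54 kb and GG 18.0 and 14.5 kb. Covered length thus was higher in the group with the most regions of its own in some of these windows and not in others. The longest stretch of the chromosome without a hotspot in any library was 126455112 to 126760613, 305.502 kb.

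Directions recurred only in part between strong and weak hotspots. With the offset added after scaling, 132 windows were AG-higher in the higher-scoring 50% of the lists, and 39 of them (29.5%) were AG-higher and 13 (9.85%) GG-higher in the lower-scoring 50%. Over all chromosome 11 windows the lower-scoring 50% was AG-higher in 22.9%. Of 137 windows that were GG-higher in the higher-scoring 50%, 28 (20.4%) were GG-higher and 24 (17.5%) AG-higher in the lower-scoring 50%, against 16.1% GG-higher over all windows of the chromosome. Genome-wide, 26.3% of the AG-higher windows kept their direction, against 18.6% AG-higher over all windows, and 29.99% of the GG-higher ones, against 21.2%. Both score ranges come from the same libraries, and the difference between chromosome 11 and the genome was not tested.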
